A study of Mus musculus with 6 samples.

Results

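Epithelial adhesion and splicing genes were examined in RNA of E15.5 mouse embryos, taken from the cranial base, a plate of cartilage on which the brain rests. The 8 genes were Epcam, Cdh1, Cldn4, Cldn6, Cldn7, Esrp1, Esrp2 and Grhl2, chosen by symbol from a table of 43496 gene entries. All 8 were found, with no repeated symbol. All embryos were C57BL/6J. Of these, 3 were controls and 3 were Memo1 mutants, and each gave 1 library. Mutants carried an allele made with ENU, a chemical mutagen. The labels give no zygosity, no agent given to the embryos and no genotype of the controls beyond that word. The comparison asked which genes differ between mutant and control cranial base, and the values are FPKM, fragments per kilobase of transcript scaled to library size, so that levels of different genes can be set side by side.

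Epithelia are sheets of cells held together by junctions along their sides. E-cadherin, the product of Cdh1, joins neighbouring cells in adherens junctions, and claudins seal the space between them in tight junctions. ESRP1 and ESRP2 are RNA-binding proteins that set the epithelial splice forms of other genes, and the transcription factor GRHL2 keeps up the expression of junction genes. In an embryonic cranial base such cells lie in the linings and glands next to the cartilage, not in the cartilage itself.

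The tissue label held by its markers, and 1 library stood apart. All 6 cartilage markers fixed for the check were present in every library, with Col2a1, the main cartilage collagen, at 1570 FPKM or more. In mutant 1, 30814 entries were listed at 0, while the other 5 libraries had 19789 to 20596 such entries, and 823 entries above 5 FPKM in all of those were at 0 there. The correlation of its log2 values with each other library was r = 0.748 to 0.762 across the 15710 entries tested, against 0.968 to 0.981 among the other 5, where entries are not independent of each other. It lay inside the range of the other 5 libraries for 14.8% of the tested entries and for 5 of the 8 genes. Read counts were not used here. Steps between low values put the depth of control 2, control 3, mutant 2 and mutant 3 at 80.4%, 92.4%, 117% and 152% of control 1, and no depth could be read for mutant 1. Changes of the 8 genes and medians of the lists are therefore given with all 6 libraries and without mutant 1.

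None of the 8 genes passed the test between genotypes. In mutants 2 and 3, 3 of the 8 were lower than in each control, where 20.1% of all entries tested were. The 3 genes were the claudins Cldn4 and Cldn7 and the splicing factor Esrp1. The adhesion genes Epcam and Cdh1, the splicing factor Esrp2, the claudin Cldn6 and the transcription factor Grhl2 overlapped between the genotypes. With limma on log2(FPKM + 1) over 15710 entries, 0 of 8 genes passed an adjusted p of 0.05 with all 6 libraries, where 0 of all entries (0.0%) did, and 0 of 8 had an unadjusted p under 0.05, where 5.12% of all entries did. Without mutant 1, 0 of 8 passed (7 of all entries, 0.0446%) and 2 had an unadjusted p under 0.05 (17.0% of all entries). With array weights, which give less influence to libraries that deviate from their group, with 0.0329 for mutant 1, 0 of 8 passed (320 of all entries, 2.04%) and 3 had an unadjusted p under 0.05 (18.3% of all entries). The RNA is from whole tissue, so fewer epithelial cells and less RNA per epithelial cell cannot be told apart.

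**Figure D1:**
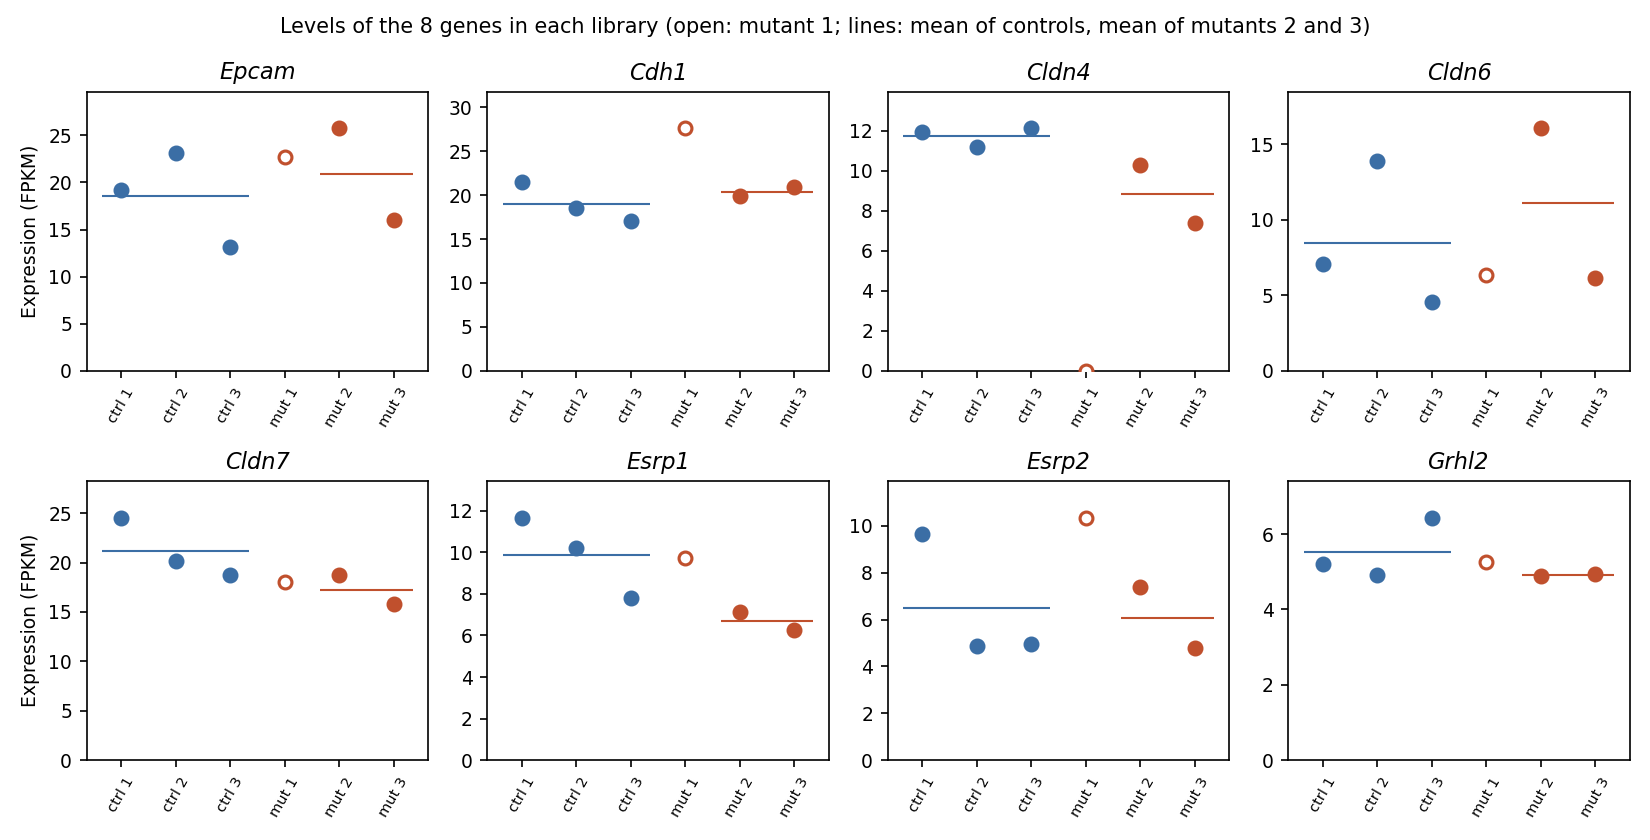
FPKM (vertical axis, from 0) of each of the 8 genes in the 3 control and 3 mutant libraries, with 1 point for each library, mutant 1 drawn open, and lines at the mean of the 3 controls and at the mean of mutants 2 and 3. Cldn4, Cldn7 and Esrp1 lie lower in mutants 2 and 3 than in each control, while Epcam and Cldn6 are highest in control 2 and mutant 2.

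Promoter sequences are shown for the 4 genes that have one in the RefSeq table (build GRCm38.p6), because these genes showed different patterns across the embryos and share a short motif. Epcam, Cldn4, Cldn6 and Cldn7 matched. Cdh1, Esrp1, Esrp2 and Grhl2 had no entry. The motif is the E-box CAGGTG, or CACCTG on the other strand, which repressors of the SNAI and ZEB families bind. Each run is the 250 bases before the gene's start on the gene's own strand, in lower case with E-boxes in capitals.
Epcam (chr17:87635729-87635978, plus strand): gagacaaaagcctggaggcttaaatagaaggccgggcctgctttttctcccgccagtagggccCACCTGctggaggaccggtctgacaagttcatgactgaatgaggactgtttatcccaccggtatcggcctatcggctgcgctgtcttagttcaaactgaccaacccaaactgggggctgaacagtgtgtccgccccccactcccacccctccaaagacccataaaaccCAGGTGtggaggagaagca
Cldn4 (chr5:134946935-134947184, minus strand): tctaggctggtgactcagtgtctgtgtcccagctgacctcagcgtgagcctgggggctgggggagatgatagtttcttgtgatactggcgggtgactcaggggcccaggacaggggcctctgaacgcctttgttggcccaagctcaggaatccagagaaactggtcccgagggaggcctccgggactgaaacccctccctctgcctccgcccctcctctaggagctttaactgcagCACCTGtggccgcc
Cldn6 (chr17:23679115-23679364, plus strand): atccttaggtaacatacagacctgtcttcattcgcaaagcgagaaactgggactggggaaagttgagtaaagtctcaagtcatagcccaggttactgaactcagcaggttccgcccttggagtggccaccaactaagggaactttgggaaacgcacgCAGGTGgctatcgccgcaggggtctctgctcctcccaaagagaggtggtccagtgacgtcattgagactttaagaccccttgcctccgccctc
Cldn7, the second of its 2 starts (chr11:69965171-69965420, plus strand): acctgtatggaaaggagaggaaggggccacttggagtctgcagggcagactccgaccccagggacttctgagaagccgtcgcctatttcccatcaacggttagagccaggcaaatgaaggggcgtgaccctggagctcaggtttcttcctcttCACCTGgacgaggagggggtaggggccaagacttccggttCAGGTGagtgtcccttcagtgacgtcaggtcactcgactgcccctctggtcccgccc

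All 4 genes held an E-box in at least 1 such stretch, in 4 of 5 stretches, while 17.2% of all 32851 stretches of the same length in the table held one. Epcam had 2, beginning 187 and 19 bases before the start, Cldn4 had 1 at 14 bases, Cldn6 had 1 at 93 bases, and the second start of Cldn7 had 2 at 97 and 57 bases. The stretch before the first start of Cldn7 had none. The GRHL motif in the exact letters AACCGGT, or ACCGGTT on the other strand, was in none of the 5 and in 0.831% of all. Variants of these letters were not searched, so the count does not show that GRHL sites are absent. The genes with these matches did not share 1 pattern between the genotypes. A match describes letters and not binding, which was not measured.

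Epcam, the adhesion molecule that marks most epithelial cells, varied between embryos of the same genotype. It was 19.2, 23.2 and 13.2 FPKM in controls 1, 2 and 3 and 22.7, 25.7 and 16.0 FPKM in mutants 1, 2 and 3. The lowest and the highest control bracketed 2 of the 3 mutants, and control 2 and mutant 2 were the highest of their groups. The means were 18.5 ± 5.02 FPKM in controls, against 21.5 ± 4.98 FPKM in mutants (SD, n = 3), a log2 change of 0.21 with a 95% interval of -0.45 to 0.87 (limma adjusted p = 0.723). Without mutant 1 it was 0.16 (limma adjusted p = 0.801).

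Cdh1, which encodes E-cadherin, was the steadiest of the adhesion and claudin genes once mutant 1 was set aside. It was 21.5, 18.5 and 17.0 FPKM in the controls, against 27.6, 19.9 and 20.9 FPKM in mutants 1, 2 and 3. Mutant 1 was the highest, and mutants 2 and 3 lay within the range of the controls. Among the 5 libraries without mutant 1 the highest Cdh1 value was 1.26 times the lowest, against 1.95 times for Epcam and 3.51 times for Cldn6. The log2 change was 0.24 with a 95% interval of -0.19 to 0.67 in all 6 libraries and 0.10 with an interval of -0.17 to 0.38 without mutant 1 (limma adjusted p = 0.695 and 0.690).

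Cldn7, a claudin found along the sides of many epithelial cells, was lower in each mutant than in each control. Its values were 24.6, 20.1 and 18.72 FPKM in controls 1, 2 and 3 and 18.01, 18.71 and 15.8 FPKM in mutants 1, 2 and 3. The gap was narrow, since mutant 2 and control 3 were nearly level. The means were 21.1 ± 3.05 and 17.5 ± 1.5 FPKM (SD, n = 3), with a log2 change of -0.25 and a 95% interval of -0.62 to 0.12 (limma adjusted p = 0.695). Without mutant 1 the change was -0.27, SE 0.14 (limma adjusted p = 0.381).

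Cldn4, a claudin of tight junctions in glands and simple epithelia, was close to constant in the controls and lower in the mutants. It was 11.9, 11.2 and 12.1 FPKM in the controls, against 10.3 and 7.38 FPKM in mutants 2 and 3, and it was listed at 0 in mutant 1. Even mt-Co1, a mitochondrial gene that every cell uses, is listed at 0 in all 6 libraries, so a listed 0 need not mean absent RNA. That case covers every library, unlike the 0 of Cldn4. In mutant 1 alone 823 entries above 5 FPKM in the other 5 libraries were listed at 0. What the 0 of Cldn4 stands for was not tested, and no mean is given for the mutants. Without mutant 1 the log2 change was -0.39 with a 95% interval of -0.73 to -0.04 (limma adjusted p = 0.249). The mean of mutants 2 and 3 was 0.752 times that of the controls. Its fitted log2 change of -1.48 with all 6 libraries (limma adjusted p = 0.695) rested on the listed 0 of mutant 1.

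Counts of genes without overlap are set beside those of the whole table. With all 6 libraries 2 of 8 genes, Cldn4 and Cldn7, had all mutants below all controls, where 11.9% of all entries did. For Cldn4 this counts the listed 0 of mutant 1. Without mutant 1, Esrp1 joined them and 3 of 8 did, where 20.1% of all entries did. No gene of the 8 had all mutants above all controls, where 8.98% of all entries did with all 6 libraries and 16.2% without mutant 1.

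Cldn6, a claudin of embryonic epithelia, followed single embryos and not the genotype. It was 7.05, 13.9 and 4.58 FPKM in the controls, against 6.39, 16.1 and 6.19 FPKM in mutants 1, 2 and 3. Control 2 and mutant 2 stood above the other 4 libraries, which lay between 4.58 and 7.05 FPKM. The log2 change was 0.15 with a 95% interval of -1.10 to 1.39 (limma adjusted p = 0.888), and its sign turned without mutant 2 (-0.26). Without control 3 it was -0.18, and without mutant 1 it was 0.34 (limma adjusted p = 0.783).

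The same libraries carried more RNA of pituitary markers. The pituitary gland forms on the cranial base from oral epithelium. Pomc, its hormone precursor, reached 53.7 FPKM in control 2 and 66.2 FPKM in mutant 2, while the other 4 libraries had 2.44 FPKM or less. Lhx3, a transcription factor of the pituitary rudiment, was 4.99 and 11.6 FPKM there and at most 0.245 FPKM elsewhere. All 6 markers of the pituitary list were measured, and their summed level was 13.9 to 90.8 FPKM in controls, against 11.7 to 109 FPKM in mutants. Lhx3 was at 0 in control 3 and mutant 1, Pomc and Cga in mutant 1, and Gh in all but control 2.

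Other markers separated control 2 from mutant 2. Inner ear markers summed to 59.1 FPKM in control 2 and to at most 0.914 FPKM in each other library. Choroid plexus markers summed to 65.5 FPKM in control 2 and to 4.04 to 9.34 FPKM in the others. That excess was Ttr alone, at 58.3 FPKM in control 2 and at most 0.519 FPKM in each other library. Clic6 and Kl of that list were 6.86 and 0.318 FPKM in control 2. Clic6 was higher in control 1, at 8.84 FPKM, and Kl in mutant 1, at 1.70 FPKM. The part of pituitary, inner ear and choroid plexus tissue in the levels of Cldn6 and Epcam was not tested.

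Cldn9, the gene next to Cldn6, was also highest in these libraries. It was 4.78, 8.002 and 2.45 FPKM in the controls, against 0, 7.76 and 2.84 FPKM in mutants 1, 2 and 3. Here control 2 was slightly above mutant 2, the reverse of Cldn6. The longest stretch of identical letters between the longest GENCODE transcripts of Cldn6 and Cldn9 was 37 bases, and those of Cldn3 and Cldn4 shared 35 bases, as did Esrp1 and Esrp2. Reads within such stretches could be counted for either gene, and how such reads were assigned is not stated in the labels.

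**Figure D2:**
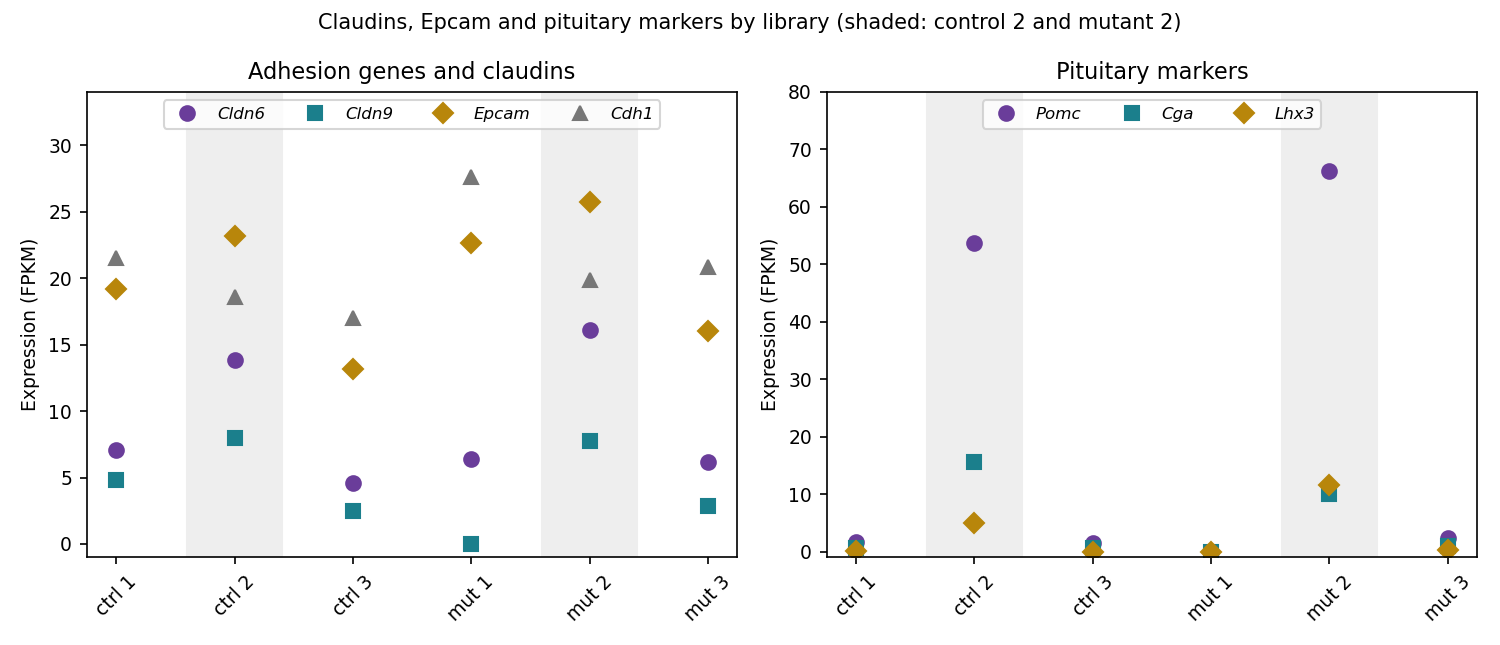
FPKM of Cldn6, Cldn9, Epcam and Cdh1 (left) and of the pituitary markers Pomc, Cga and Lhx3 (right) in each library, with control 2 and mutant 2 shaded. Cldn6, at 13.9 and 16.1 FPKM, and Pomc, at 53.7 and 66.2 FPKM, are highest in the shaded libraries, and Cdh1 is not.

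Esrp1, the splicing factor with the higher level of the pair in controls, was lower in mutants 2 and 3. It was 11.7, 10.2 and 7.79 FPKM in the controls, against 9.73, 7.12 and 6.28 FPKM in mutants 1, 2 and 3. Mutants 2 and 3 lay below all controls, and mutant 1 lay among them. The means were 9.89 ± 1.96 and 7.71 ± 1.8 FPKM (SD, n = 3), a log2 change of -0.32 with a 95% interval of -0.91 to 0.26 (limma adjusted p = 0.695). Without mutant 1 the change was -0.48 with an interval of -0.90 to -0.07 (limma adjusted p = 0.233), and with array weights -0.52 (limma adjusted p = 0.130). Of the 8 genes Esrp1 had the lowest adjusted p over all alternatives, that with array weights.

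Esrp2, its paralog, did not share this pattern. It was 9.67, 4.89 and 4.97 FPKM in the controls, against 10.4, 7.40 and 4.78 FPKM in mutants 1, 2 and 3. The highest values were those of control 1 and mutant 1, whose titles share their first word, a word that the labels do not explain. The log2 change was 0.18 with a 95% interval of -0.73 to 1.10 in all 6 libraries (limma adjusted p = 0.807) and -0.05 without mutant 1 (limma adjusted p = 0.953). The table gives 1 value for each gene, so the splice forms that these proteins regulate were not analysed here.

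Grhl2 had the lowest mean of the 8, though not the lowest value in every library, and was nearly level across embryos. It was 5.20, 4.92 and 6.43 FPKM in the controls, against 5.27, 4.88 and 4.94 FPKM in mutants 1, 2 and 3. Control 3 was the highest, and the other 5 libraries lay between 4.88 and 5.27 FPKM. The means were 5.52 ± 0.807 and 5.03 ± 0.208 FPKM (SD, n = 3), a log2 change of -0.11 with a 95% interval of -0.61 to 0.40 (limma adjusted p = 0.800). Without mutant 1 it was -0.13 (limma adjusted p = 0.654).

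**Figure D3:**
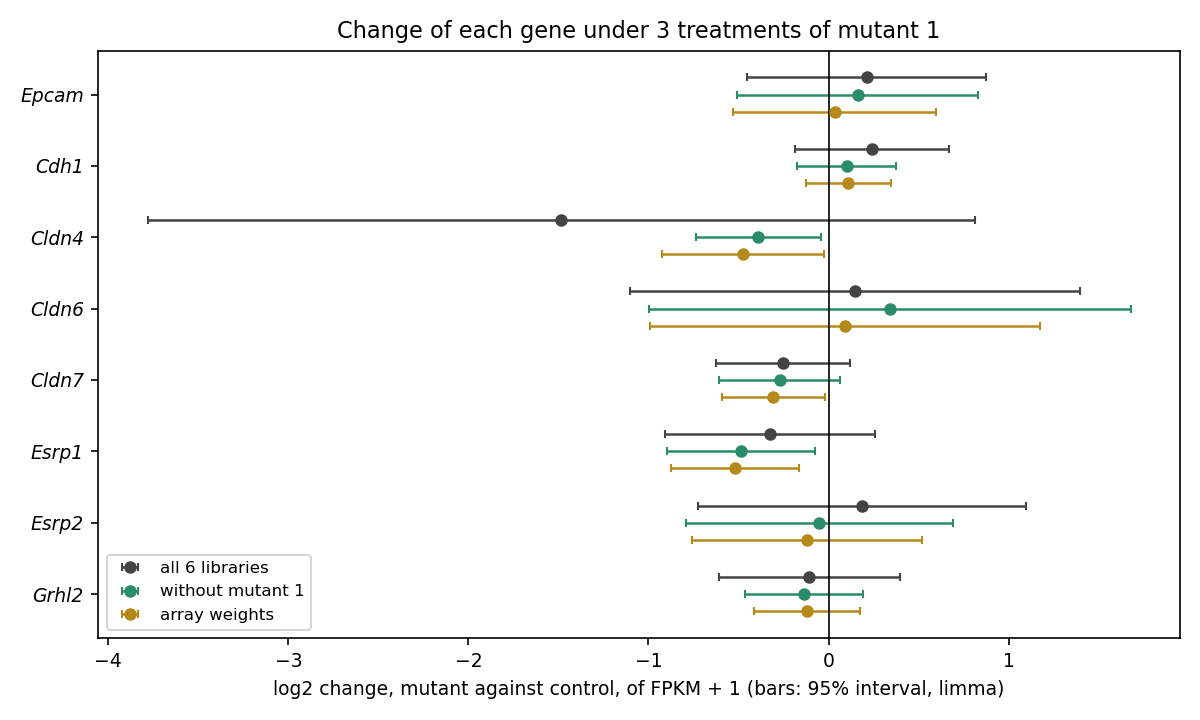
Log2 change of FPKM + 1 between mutants and controls for each of the 8 genes (points) with the 95% interval from limma (bars), with all 6 libraries, without mutant 1 and with array weights. With all 6 libraries each interval includes 0, and without mutant 1 those of Cldn4 and Esrp1 do not, before adjustment over all entries.

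Among libraries with the same first title word, Cldn7, Esrp1 and Cldn6 were lower in the mutant both times. In mutant 1 against control 1 the ratio of levels was 0.734 for Cldn7 and 0.834 for Esrp1. In mutant 3 against the mean of controls 2 and 3 it was 0.816 for Cldn7, 0.698 for Esrp1 and 0.634 for Cldn4. Cldn6 was 0.905 in the first and 0.670 in the second. Epcam turned, at 1.18 and 0.879. Cdh1 was above 1 in both, at 1.28 and 1.17. With 1 mutant for each word these ratios have no test, and mutant 2 shares its word with no control.

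In the controls the genes were ordered by their means. Cldn7, Cdh1 and Epcam had means of 21.1, 19.0 and 18.5 FPKM, and neighbours in this order overlapped. Epcam and Cldn4, at 18.5 and 11.7 FPKM, were the only neighbours whose 3 controls did not overlap. This did not part the genes into tiers, since Cldn6 in control 2, at 13.9 FPKM, was above Epcam in control 3, at 13.2 FPKM. Cldn4, Esrp1, Cldn6, Esrp2 and Grhl2, at 11.7, 9.89, 8.503, 6.51 and 5.52 FPKM, each overlapped with the next. In mutants 2 and 3 the order began with Epcam, Cdh1 and Cldn7, at 20.9, 20.4 and 17.3 FPKM, so that Cldn7, the highest in controls, came after Epcam and Cdh1.

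Relative to Cdh1, Cldn7 and Esrp1 were lower in every mutant than in each control, and Cldn4 was in mutants 2 and 3, being listed at 0 in mutant 1. This ratio was chosen after the values were seen. Cdh1 itself was highest in mutant 1, at 27.6 FPKM, which lowers every ratio there. Esrp1 in mutant 1, at 9.73 FPKM, lay among the controls before it was taken per Cdh1. Cldn7 per Cdh1 was 1.14, 1.09 and 1.10 in the controls and 0.653, 0.941 and 0.759 in mutants 1, 2 and 3. Esrp1 per Cdh1 was 0.543, 0.550 and 0.457 in the controls and 0.353, 0.358 and 0.301 in the mutants. Cldn4 per Cdh1 was 0.556, 0.603 and 0.711 in the controls and 0.517 and 0.354 in mutants 2 and 3. With the listed 0 counted, the genotypes did not overlap in these 3 of 7 ratios, where 18.0% of all entries taken per Cdh1 had every mutant below every control, and 24.5% did without mutant 1. The smallest p that an exact two-sided permutation test of 3 against 3 allows is 0.1, so no such ratio could pass. The other 4 genes overlapped between the genotypes, among them Epcam per Cdh1, at 0.775 to 1.25 in controls and 0.766 to 1.29 in mutants.

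Keratins, the filament proteins of epithelial cells, were taken per Cdh1 for all 8 keratins of the basal and simple epithelial marker lists. With all 6 libraries 7 of 8 had every mutant below every control, and without mutant 1 all 8 did, beside the 18.0% and 24.5% of all entries above. Krt5, the keratin of basal cells, was 4.42 to 5.51 times Cdh1 in controls and 1.06 to 1.39 times in mutants. Krt8, a keratin of simple epithelia, was 3.30 to 4.44 times Cdh1 in controls and 1.51 to 2.07 times in mutants. Krt14, the partner of Krt5, overlapped, at 2.69, 3.11 and 3.47 times Cdh1 in controls and 2.95, 1.98 and 1.55 times in mutants 1, 2 and 3. Mutant 1 was the exception there. Krt7 was listed at 0 in mutant 1.

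**Figure D4:**
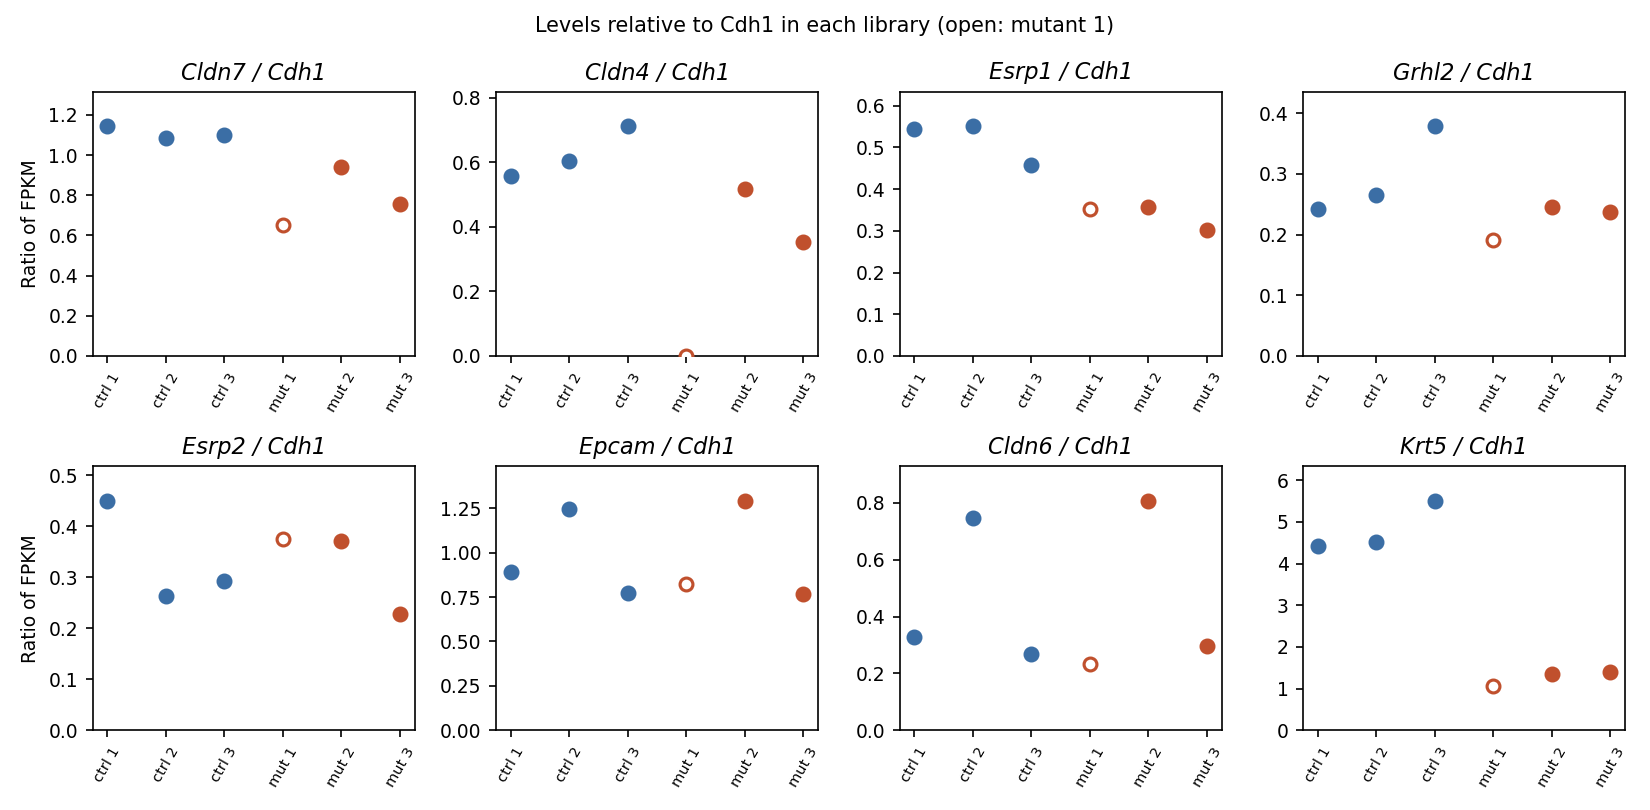
Ratio of FPKM to that of Cdh1 in each library (vertical axes from 0, mutant 1 drawn open) for the other 7 genes and for the keratin Krt5. Cldn7, Esrp1 and Krt5 lie lower in every mutant than in each control, Cldn4 does in mutants 2 and 3 and is listed at 0 in mutant 1, and the other 4 overlap.

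Over the 5 libraries without mutant 1, log2 levels of Epcam followed those of Cldn6 most closely of the other 7 (r = 0.971), those of Cldn7 followed Esrp1 (r = 0.935), and those of Cldn4 followed Cldn7 (r = 0.773). Over all 6 libraries these were 0.831, 0.832 and 0.329. Grhl2 had no close partner, with r = 0.494 at most over the 5 libraries. The points are few and share their libraries, so these values describe the embryos only. The mean profile of the 8 genes, centred gene by gene, was compared with entries of at least 5 FPKM on average and no listed 0. The profile itself counts the listed 0 of Cldn4 in mutant 1 where all 6 libraries are used. Over 6 libraries the 5 most alike of 10244 were Sema4b, Ctdp1, Adcy2, Eif3k and Cdh2, with r from 0.9752 to 0.978. Over the 5 libraries the 5 most alike of 10242 were Sema4b, Aktip, Cdh2, Runx2 and Mcf2l, with r from 0.990 to 0.998.

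The other junction and epithelial genes were taken from 10 lists, and the desmosome list was the one with the lowest median. Of its 11 genes 10 were below 0 with all 6 libraries and 11 without mutant 1, where 54.2% and 52.9% of all entries were. The median log2 change was -0.37 and -0.33, beside -0.05 and -0.01 over all entries. With all 6 libraries 0 of 11 passed, and with array weights 3 fell, Pkp1, Perp and Dsp, where 1.32% of all entries were called lower. Desmosomes anchor keratin filaments at the cell surface. Pkp1, a plakophilin of desmosomes, was 9.03, 7.47 and 8.25 FPKM in the controls, against 3.73, 4.05 and 3.68 FPKM in mutants 1, 2 and 3 (array-weighted limma adjusted p = 0.0211). Every mutant lay below every control. Perp, a desmosome membrane protein, was 26.1, 26.3 and 25.8 FPKM in the controls, against 24.5, 16.5 and 19.5 FPKM in the mutants (array-weighted limma adjusted p = 0.0433). Dsg3, a desmosomal cadherin, was 2.43, 2.18 and 1.94 FPKM in the controls, against 0, 0.831 and 1.02 FPKM in mutants 1, 2 and 3, and did not pass (array-weighted limma adjusted p = 0.0605). Dsp, which links desmosomes to keratin, was 12.4, 12.4 and 11.1 FPKM in the controls, against 25.01, 7.96 and 7.44 FPKM in mutants 1, 2 and 3, so that mutant 1 went the other way. Without mutant 1 none of the 3 passed (limma adjusted p = 0.0568 for Pkp1, 0.0916 for Perp and 0.0818 for Dsp).

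The adherens and tight junction lists had medians closer to those of all entries. Of 10 adherens junction genes 4 were below and 6 above 0, with a median log2 change of 0.12, and without mutant 1 the median was 0.01. Of 16 tight junction genes 6 were below and 10 above 0, with a median of 0.16, and without mutant 1 of -0.01. No member of either list passed under equal weights, without mutant 1 or with array weights. Lsr, a protein of junctions where 3 cells meet, was 12.3, 13.2 and 10.5 FPKM in controls, against 18.2, 18.9 and 16.7 FPKM in mutants (log2 change 0.54, limma adjusted p = 0.695, and 0.0674 with array weights). Each mutant was above each control. Without mutant 1 its change was 0.53 (limma adjusted p = 0.126).

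The 4 adherens junction genes with the smallest p went in both directions. Pvrl2, a nectin that joins cells beside cadherins, was 28.2, 30.3 and 29.0 FPKM in controls, against 32.6, 34.8 and 33.5 FPKM in mutants (log2 change 0.20, and 0.22 without mutant 1). Pvrl1, another nectin, was 7.005, 7.12 and 7.21 FPKM in controls, against 12.0, 9.22 and 7.74 FPKM in mutants (log2 change 0.37, and 0.22 without mutant 1). Both were higher in each mutant than in each control. Jup, a catenin shared with desmosomes, was 39.3, 38.9 and 39.0 FPKM in controls, against 65.3, 42.8 and 39.4 FPKM in mutants (log2 change 0.29, and 0.07 without mutant 1). It too did not overlap, with mutant 3 nearly level with control 1. Ctnnd1, which binds E-cadherin from inside the cell, was 57.7, 61.1 and 53.8 FPKM in controls, against 54.8, 46.4 and 48.8 FPKM in mutants 1, 2 and 3 (log2 change -0.20, and -0.27 without mutant 1). It overlapped through mutant 1. The limma adjusted p of each of the 4 was 0.695 with all 6 libraries, and without mutant 1 it was 0.195 for Ctnnd1, 0.229 for Pvrl2, 0.367 for Pvrl1 and 0.667 for Jup.

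Among the other 22 claudins 13 had a mean of at least 1 FPKM and were tested, with 6 below and 7 above 0. The median log2 change was 0.12, and -0.03 without mutant 1. Cldn19 and Cldn22 reached that mean only through mutant 1, at 11.5 and 10.5 FPKM. In each other library they had at most 0.412 and 0.655 FPKM. Both count among those above 0, a direction that the filter favoured with all 6 libraries. Cldn11, which is also known from myelin and the inner ear, was 22.7, 22.7 and 17.1 FPKM in controls, against 29.96, 26.3 and 32.6 FPKM in mutants (limma adjusted p = 0.695, and 0.211 without mutant 1). Cldn8 was 2.65, 2.28 and 2.10 FPKM in controls, against 0, 1.34 and 1.40 FPKM in mutants 1, 2 and 3 (limma adjusted p = 0.695, and 0.177 without mutant 1). No claudin passed in any of the 3 fits, and 4 of the 13 were listed at 0 in mutant 1.

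The list of epithelial regulators held the transcription factor p63, whose gene Trp63 drives basal cell identity. Of 10 tested genes 7 were below 0, with a median log2 change of -0.28, and 8 were below 0 without mutant 1, with a median of -0.19. Trp63 was 7.08, 6.28 and 6.05 FPKM in controls, against 1.85, 3.43 and 2.66 FPKM in mutants 1, 2 and 3. Every mutant lay below every control, and with array weights it was the 1 gene of the list that fell (limma adjusted p = 0.0269, against 0.695 with equal weights and 0.0707 without mutant 1). Ehf, an ETS factor of epithelia, was 21.4, 15.9 and 16.7 FPKM in controls, against 4.77, 14.6 and 13.6 FPKM in mutants, and did not pass (limma adjusted p = 0.695, and 0.312 without mutant 1).

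Of 12 epithelial surface genes 7 were below 0 with all 6 libraries, with a median log2 change of -0.05, and 10 were without mutant 1, with a median of -0.14. Of 7 basement membrane genes 4 were below 0, with a median of -0.10, and 5 were without mutant 1, with a median of -0.06. Over all entries 54.2% and 52.9% were below 0. Col17a1, a collagen that fixes basal cells to the basement membrane, was 14.5, 15.2 and 16.6 FPKM in controls, against 7.89, 10.8 and 7.87 FPKM in mutants and fell with array weights (limma adjusted p = 0.0411). It did not pass with equal weights (limma adjusted p = 0.695) or without mutant 1 (0.111).

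Genes of the opposing mesenchymal program did not pass in any of the 3 fits. Of 7 repressors of the epithelial state 6 were above 0, with a median log2 change of 0.15, and 4 were without mutant 1, with a median of 0.03. Snai1, a repressor that binds E-boxes, was 32.0, 33.9 and 38.2 FPKM in controls, against 41.1, 41.7 and 42.0 FPKM in mutants, each mutant above each control (log2 change 0.26, SE 0.11, limma adjusted p = 0.695, and 0.238 without mutant 1). Of 6 mesenchymal genes 3 were above 0, with a median of 0.04, and 3 were without mutant 1, with a median of 0.02. Fn1, the matrix protein fibronectin, was 133, 148 and 148 FPKM in controls, against 354, 191 and 179 FPKM in mutants 1, 2 and 3. Each mutant was above each control, and the gene did not pass (limma adjusted p = 0.695, and 0.118 without mutant 1). Of 10 splicing partners, which are factors that act with or against ESRPs and genes known as their splicing targets, 6 were above 0, with a median of 0.11, and -0.04 without mutant 1.

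**Figure D5:**
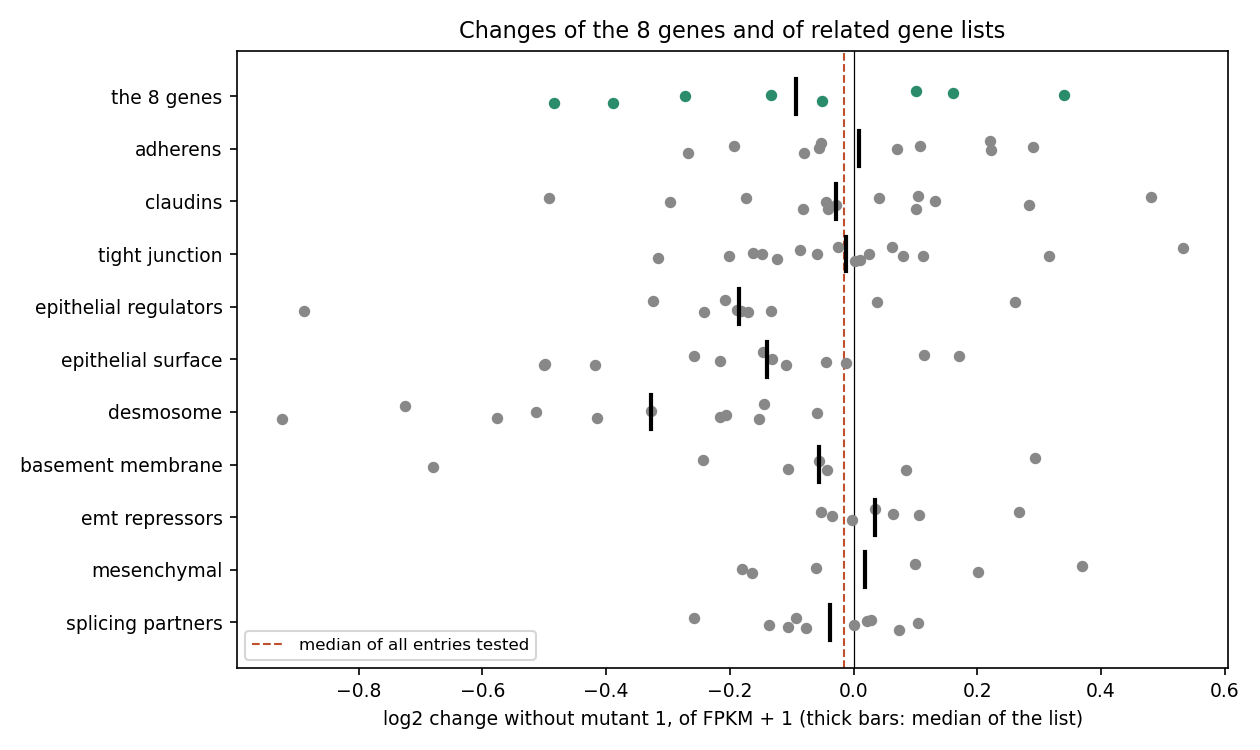
Log2 change of FPKM + 1 without mutant 1 for the tested genes of the 8-gene group and of each of the 10 lists (points, spread vertically for visibility), with the median of each list as a thick bar and the median of all entries tested as a dashed line. The desmosome list has its median at -0.33 and no gene above 0, and the 8 genes have 5 below and 3 above 0.

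Summed marker levels of several tissues differed between the genotypes beside these genes. The summed level of 5 basal epithelial markers was 453 to 471 FPKM in controls, against 216 to 245 FPKM in mutants, and that of 4 simple epithelial markers was 221 to 245 and 129 to 138 FPKM. Ciliated epithelial markers summed to 270 to 378 FPKM in controls, against 206 to 243 FPKM in mutants. These 3 sums did not overlap, although Krt14 of the basal list and Foxj1 of the ciliated list were highest in mutant 1, at 81.4 and 75.7 FPKM. Foxj1 was also higher in mutant 2 than in control 2, at 53.8 and 50.4 FPKM. Tppp3 was the largest part of the ciliated sum, at 185 to 264 FPKM in controls and 138 to 145 FPKM in mutants. Salivary and glandular markers overlapped, at 16.1 to 33.2 FPKM in controls, against 0 to 21.3 FPKM in mutants, and so did olfactory markers, at 3.55 to 14.5 and 0 to 5.32 FPKM. Tissues other than epithelium also differed. Bone markers summed to 820 to 1198 FPKM in controls, against 277 to 498 FPKM in mutants, and the 2 of 4 muscle markers that were measured to 655 to 971 and 440 to 529 FPKM. Bglap of the bone list was 2.78 to 4.78 FPKM in controls, higher in mutant 2, at 6.12 FPKM, and listed at 0 in mutants 1 and 3. Cartilage markers were higher in every mutant, at 2416 to 3221 FPKM in controls, against 3632 to 4160 FPKM in mutants. Blood markers overlapped, at 1123 to 1309 and 965 to 1164 FPKM. The part of these cell types in the levels of Cldn4, Cldn7 and Esrp1 was not tested. In the authors' deposited table Cldn4 had a p-value of 0.249 and a q-value of 0.529, and the p-values of the other 7 genes lay between 0.128 for Cldn7 and 0.814 for Cldn6.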

How the data were processed

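RNA of the cranial base of 3 control and 3 mutant embryos was kept in RNAlater and isolated with a Norgen kit, per the labels' protocols. The authors deposited 1 table with an FPKM value for each library, group means, a signed fold score, a p-value and a q-value, the last with a code in many entries, so that the deposited q-values are treated as a score. The submitters' processing notes name Cufflinks and the build mm9. The unit was inferred from that tool and the values. The sources used here do not give aligner, annotation, filters or test. The code 999999999 was taken as missing, and 15 entries with it were left out, none of them among the 8 genes.

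The 15710 entries whose mean over all libraries reached 1 FPKM, among them the 8 genes, entered a two-sided test for genotype with limma 3.58.1 (R 4.3.3). The scale was log2(FPKM + 1), the variance prior was robust with a trend, and p-values were Benjamini-Hochberg adjusted over all entries, with a threshold of 0.05. This scale understates the change of low genes. Intervals are 95% and not adjusted. P-values set the difference between genotypes against the spread between libraries of a group. With 1 library for each embryo, differences between embryos and between libraries cannot be told apart. The fit was also run on simulated data, whose outcome is not reported here, so no statement on its power is made. The 8 genes, the lists and the tests were chosen with earlier results of these data known. For each list up to 4 genes with the smallest p were named, and those alike in pattern by Pearson's r. Dsp, the keratins, Cldn9 and the ratios to Cdh1 were chosen after their values were seen. Some genes of the lists are counted there but not reported by name here. Protein identity, which was planned, was not analysed here, and stretches shared by transcripts were compared instead. Replicate numbers follow accession order and pair no samples. Alternatives were array weights, each library left out, another pseudocount, no filter, median scaling and a replicate block.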

Additional observations from a re-analysis of the deposited data

How the results depend on the processing

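None of the 8 genes passed in any of the 11 alternatives (limma adjusted p from 0.130 to 0.999), and 82 of 88 fitted changes kept their direction. The direction turned for Cldn6 with the first title word as a replicate block (log2 change -0.25) and, over single libraries left out, within a range of -0.26 to 0.53, which includes -0.18 without control 3 and -0.26 without mutant 2. Epcam ranged from -0.0014, without control 3, to 0.40, and Esrp2 from -0.0503, without mutant 1, to 0.47. The direction of Esrp2 also turned with array weights (-0.12). The fitted change of Cldn4 ranged from -2.58, with a pseudocount of 0.1 FPKM, to -0.39, without mutant 1, and followed the listed 0 there. Over all entries 320 passed with array weights and 0 to 7 with 1 library left out, 7 of them without mutant 1. The replicate block on the title word called 0 entries and 0 of the 8 genes. Mutant 2 is alone in its word, so it adds nothing to the genotype change in that fit. The block is therefore close to leaving mutant 2 out. The words are not explained in the labels. For libraries that share one, deviations had r = -0.0278 to 0.00154 across genes, over 3 pairs of a control and a mutant. Pairs with different words had r = -0.0744 to 0.0483, a range that includes the first. A difference between these 2 kinds of pair was not tested. Scaling by median ratios, another pseudocount and no filter turned no direction among the 8 genes and called 0 entries.

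With 3 embryos in each group, and mutant 1 far from the rest, the 95% interval ran from -0.62 to 0.12 for Cldn7 and from -3.78 to 0.81 for Cldn4 on the log2 scale. Relative depth differed between libraries and is not known for mutant 1.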
